A study of Rattus norvegicus with 24 samples.

Results

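The cytosolic ribosomal protein genes of the rat hypothalamus were followed through restraint stress and through restraint with inhaled linalool. Members were all probe sets whose single gene symbol in the array's annotation has the form of a ribosomal protein gene (Rpl or Rps with a number and at most 1 of the letters a, x, y or l) or is Rplp0, Rplp1, Rplp2 or Rpsa. The rule reads symbols alone. It gave 50 of 31042 probe sets, for 44 of 14217 named genes. Of these, 33 probe sets (30 genes) belong to the large subunit and 17 (14 genes) to the small subunit. Rpl14, Rpl3, Rpl7 and Rps24 have 2 probe sets each and Rpsa has 3, so members are not independent of each other.

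A ribosome is built from a large subunit, which forms peptide bonds and guides the new chain out through a tunnel, and a small subunit, which reads the mRNA. Nearly every ribosomal protein is present in a single copy per ribosome, and the genes are regulated together: their mRNAs begin with a run of pyrimidines (a TOP sequence) through which the mTOR pathway controls their translation. In neurons, ribosomal protein mRNAs are abundant in the cell body and are also carried into processes, where they can be translated locally.

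RNA was measured in male Wistar rats, an outbred laboratory strain, aged 7 weeks, with 6 rats in each of 3 groups: an untreated control group, a group restrained for 2 h in steel-wire mesh, and a group restrained for the same time in a 40 L box into which 20 µL of (R,S)-linalool, a fragrant terpene alcohol, had evaporated. Each array held RNA from the hypothalamic block of 1 rat, killed right after the exposure. The authors normalized the control and stress arrays together, and the stress arrays once more with the linalool arrays, so each stress rat has a value in both sets and the 2 comparisons share the same 6 stress rats. Control and linalool rats were never set against each other, and the design has no linalool group without restraint.

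Several short sequences were found in a larger share of these genes' promoters than of all promoters. An entry in RefSeq's GRCr8 annotation was found for 37 of the 44 genes. An unbroken run of at least 8 pyrimidines (C or T, sense strand) lay within 20 bases either side of the annotated start in 25 of them (67.6%), against 15.5% of all 27457 promoters. The word CTTTCC, which can lie inside such a run, stood in the same window of 29.7%, against 1.79% of all promoters. Over the whole 300 bases and on both strands, 27.0% held GATGGCG (all promoters, 4.26%), 21.6% held CCGGAAG (9.22%) and 64.9% held GGGCGG (34.9%). These are matches of letters, not sites, and a run can lie wholly before the annotated start, as in Rps3, Rpl7a and Rps15a below. The windows below run from 40 bases before to 20 bases after the annotated start, 5′ to 3′, for members that the linalool comparison turns on, with the longest pyrimidine run within 20 bases of the start in capitals. The leading small and large subunit members were Rps3, Rps3a, Rpl34 and Rpl26. Rps27l is a paralog, Rpl7a and Rps15a went the other way, and Rplp0 did not pass the test.
Rps3 (GRCr8 chr1:163195757-163195816, minus strand): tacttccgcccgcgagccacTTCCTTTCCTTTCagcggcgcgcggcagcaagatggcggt
Rps3a (GRCr8 chr2:173827023-173827082, minus strand): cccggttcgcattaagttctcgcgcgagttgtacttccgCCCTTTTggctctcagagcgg
Rpl34 (GRCr8 chr2:221962264-221962323, minus strand): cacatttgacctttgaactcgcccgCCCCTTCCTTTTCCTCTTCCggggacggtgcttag
Rpl26 (GRCr8 chr10:54109652-54109711, plus strand): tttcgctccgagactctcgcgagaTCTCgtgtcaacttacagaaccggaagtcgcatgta
Rps27l (GRCr8 chr8:76443618-76443677, plus strand): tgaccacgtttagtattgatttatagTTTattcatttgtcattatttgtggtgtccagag
Rpl7a (GRCr8 chr3:30637096-30637155, plus strand): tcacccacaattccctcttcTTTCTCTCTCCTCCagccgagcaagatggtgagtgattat
Rps15a (GRCr8 chr1:181860265-181860324, minus strand): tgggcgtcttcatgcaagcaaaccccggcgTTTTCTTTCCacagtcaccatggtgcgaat
Rplp0 (GRCr8 chr12:46718371-46718430, minus strand): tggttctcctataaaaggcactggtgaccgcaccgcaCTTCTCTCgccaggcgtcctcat

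Inside the searched window the longest run was 20 bases in Rpl34 and 13 in Rps3, and it was 14 in Rpl7a and 10 in Rps15a, the members that fell. In Rpl26 and Rps27l, which rose, it was 4 and 3 bases. Long runs thus occurred among members that rose and in both that fell. The runs of Rpl7a and Rps3 are cut by the edge of the searched window and go on before it. The lengths therefore do not rank these members.

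The spread of the deposited log2 values differs between probe sets by orders of magnitude, which decides how a difference must be read. In the set of control and stress rats the residual SD (the spread of rats around their group means) lay below 0.01 log2 units for 22 of the 50 members, and in the set of stress and linalool rats for 13. Such probe sets are called compressed here. Over all probe sets the shares were 83.5% and 83.7%. Of the members, 12 were compressed in both sets, 10 only in the first, 1 (Rplp0) only in the second and 27 in neither. Rps27l shows the extent: the SD over the same 6 stress rats was 1.04e-04 with the controls and 0.0770 with the linalool rats. The order of those rats was largely kept, with a median correlation between the sets of 0.983 over the members (lowest 0.632, Rpl23; over 6 rats each, a description). Differences are therefore given in residual SDs (standard error 0.577 for 6 against 6 rats), and as log2 differences only where a probe set was not compressed. For 43 of the 50 members the mean signal was at or above the median probe set, and the other 7 (the dimmer Rpl14 probe set, Rpl28, Rpl30, Rpl3l, Rps13, the dimmer Rps24 probe set and Rps27l) were dim. Signals depend on the probes as well as on the transcript and do not rank genes.

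**Figure D1:**
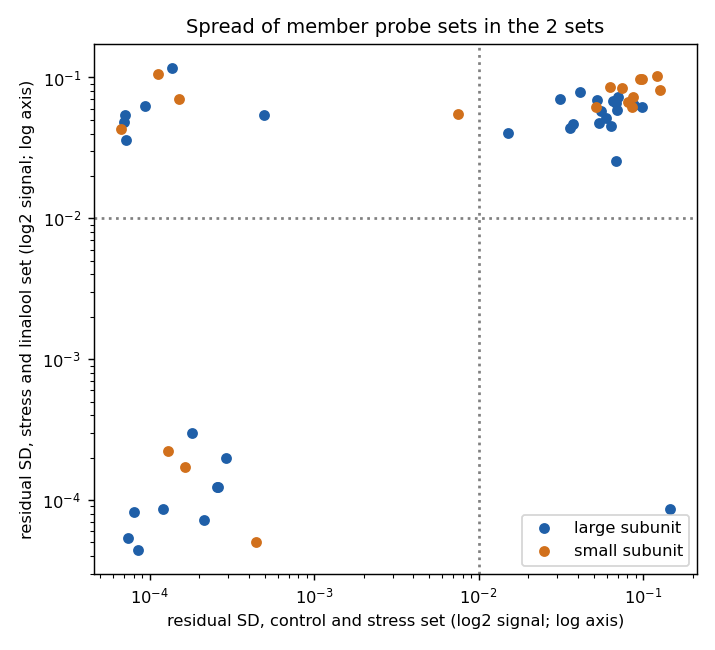
Residual SD (log2 signal, log axes) of each of the 50 member probe sets in the set of control and stress rats (horizontal) and in the set of stress and linalool rats (vertical); blue, large subunit; orange, small subunit. Dotted lines mark 0.01. The 12 members at lower left were compressed in both sets, the 10 at upper left in the first set only, and the single point at lower right is Rplp0.

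Array-wide facts bear on both comparisons. Column medians ran from 8.13 to 8.19 log2 units. Of 13 hypothalamic marker genes (Avp, Oxt, Pmch and others) 12 were measured, 7 of them with a mean signal at or above the median probe set. Of 45 control probe sets for bacterial and phage transcripts, 1 was lower in the stress comparison and 15 were higher and 4 lower in the linalool comparison (limma, adjusted over the 57 array controls). The log2 ratio of 3′ to 5′ beta-actin signal, a measure of RNA integrity and labelling, was 1.44 ± 0.0713 in control and 1.54 ± 0.0960 in stress rats, and in the second set 1.48 ± 0.0718 in stress and 1.28 ± 0.0335 in linalool rats (SD, n = 6 each; exact permutation p = 0.0584 and 0.00216, the latter the smallest 6 against 6 can give; adjusted over 6 comparisons 0.0701 and 0.0130). For GAPDH the ratio differed in the other direction in the second set, from 0.448 ± 0.0756 in stress to 0.551 ± 0.0308 in linalool rats (SD, n = 6 each; exact permutation p = 0.0152, adjusted 0.0303). The hexokinase ratio was also higher in linalool rats, by 6.06e-04 (exact permutation p = 0.00433, adjusted 0.0130), with SDs of 3.17e-04 in stress and 1.24e-04 in linalool rats. In the first set the exact permutation p was 0.0346 for GAPDH (adjusted 0.0519; higher by 6.61e-05 in stress rats) and 0.768 for hexokinase.

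The comparison of stress with control rats asked whether 2 h of restraint altered the family. No member passed the test (0 of 50; 0.554% of all probe sets did; limma with Benjamini-Hochberg adjustment over 31042 probe sets, threshold 0.05). The means nevertheless lay mostly on one side: 47 of 50 were lower in stress rats, against 44.9% of all probe sets, and all 43 members at or above the median level were lower, against 51.9% of such probe sets. The median difference of the members was -0.96 residual SDs, against 0.12 over all probe sets. The 28 members that were not compressed had lower means in stress rats as deposited, after quantile normalization and after median centring, against 58.6%, 55.6% and 54.7% of all uncompressed probe sets, whereas of the 22 compressed members 3 were higher in stress rats as deposited, 12 with quantile normalization and all 22 with median centring. Of all compressed probe sets 98.2% were higher with quantile normalization and 99.9% with median centring. As deposited 86.4% of the compressed members had a lower mean, against 44.9% of all probe sets, of which 83.5% were compressed. In tissue blocks, fewer cells of a type and less RNA per cell cannot be told apart.

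The medians of both subunits lay on the same side. The median was -0.90 residual SDs over the 33 large subunit probe sets, 31 of them with a lower mean, and -1.03 over the 17 small subunit probe sets, 16 of them with a lower mean. With quantile normalization the small subunit median was -0.26. An unadjusted p under 0.05 was reached by 11 members, all with a lower mean in stress rats (8 large, 3 small subunit), where 6.72% of all probe sets reached it in that direction. No member had groups that did not overlap (1.78% of all probe sets).

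Rpl24, a large subunit protein that bridges to the small subunit, came nearest to the threshold. Its log2 signal was lowest 12.04, median 12.05 and highest 12.10 in control rats and 11.91, 11.99 and 12.07 in stress rats. Most stress rats lay below every control, but the highest stress rat lay inside the control range. The log2 difference was -0.08 ± 0.02 (SE, 6 rats per group; limma, adjusted p = 0.174). Next stood Rpl39 (-1.79 residual SDs, adjusted p = 0.189), a small protein of the exit tunnel wall that was compressed, Rpl11 (-0.09 log2 units, adjusted p = 0.192) and Rpl41 (compressed, -1.68 residual SDs, adjusted p = 0.215), a very short peptide at the subunit interface. Rpl39 and Rpl41 turned higher with median centring, and Rpl39 also with quantile normalization.

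Rpl11 is part of the particle that carries 5S rRNA into the large subunit and that binds Mdm2 when free of the ribosome. Its log2 signal was 12.17, 12.31 and 12.34 (lowest, median, highest) in control rats and 12.15, 12.18 and 12.25 in stress rats, so the median stress rat lay near the lowest control. The other listed members of the 5S particle and Mdm2-binding group, Rpl5 (-0.29 residual SDs, adjusted p = 0.825) and Rpl23 (-0.13, adjusted p = 0.929), were compressed in this set. They differed by less than the standard error. Both turned higher with median centring.

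Among the small subunit members the smallest p-values belonged to Rps27l, Rpsa, Rps15a, Rps3 and Rps29. Rpsa, also known as the laminin receptor, had a log2 difference of -0.15 ± 0.06 (SE; adjusted p = 0.245, limma) at its brightest probe set. Rps15a had the largest log2 difference of all members, -0.17 ± 0.07 (SE; adjusted p = 0.293, limma): control rats ranged from 11.58 to 11.94 around a median of 11.79, and stress rats from 11.46 to 11.74 around 11.63. The ranges overlapped over much of their length. Rps3, which sits where the mRNA enters, lay at -0.06 ± 0.03 (SE; adjusted p = 0.319, limma). For the compressed Rps27l (-1.60 residual SDs, adjusted p = 0.228) and Rps29 (-1.23, adjusted p = 0.331) the direction turned with quantile normalization and with median centring.

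The remaining members with known places in the ribosome did not pass either. In the P stalk, which recruits elongation factors, Rplp0 differed by -0.11 ± 0.08 and Rpl12 by -0.07 ± 0.05 log2 units. Rpl3, which reaches towards the peptidyl transferase centre, differed by -0.05 ± 0.04. At the exit tunnel the log2 differences were -0.07 ± 0.03 for Rpl4, -0.09 ± 0.06 for Rpl19, -0.07 ± 0.04 for Rpl22, -0.04 ± 0.02 for Rpl23a, -0.05 ± 0.03 for Rpl26 and -0.06 ± 0.04 for Rpl35. Rps6, the substrate of S6 kinase, differed by -0.07 ± 0.05 (SE throughout). The muscle paralog Rpl3l, dim and compressed, had a mean 0.13 residual SDs higher in stress rats, and this direction turned when single rats were left out.

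**Figure D2:**
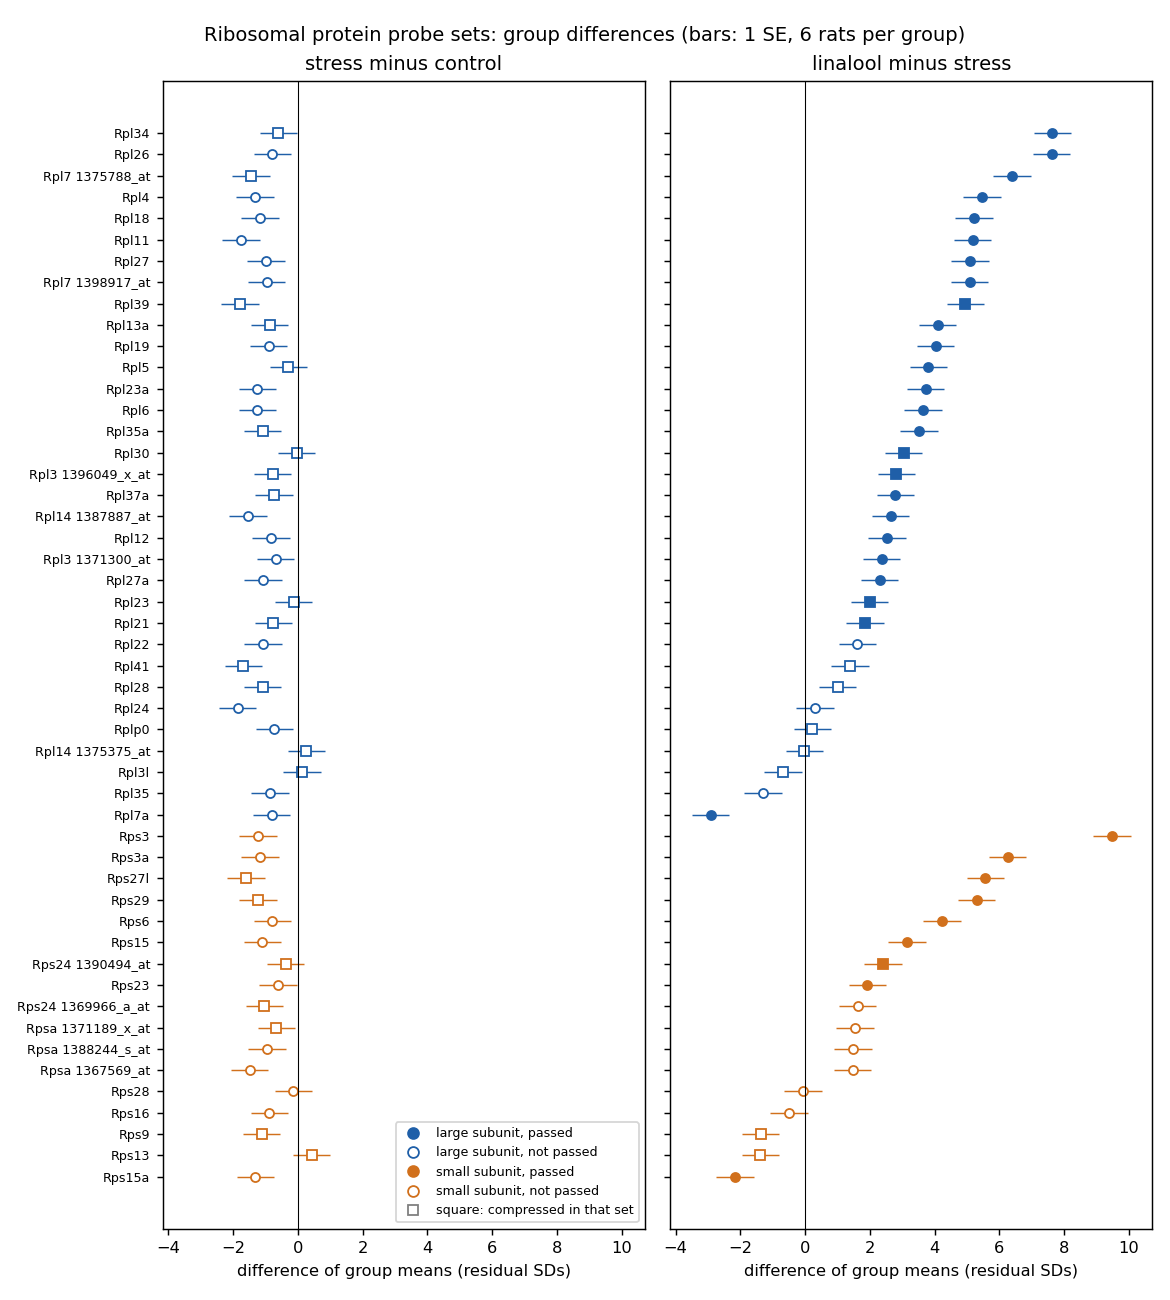
Difference of group means in residual SDs for each member, with 1 SE (6 rats per group): stress minus control (left) and linalool minus stress (right), large subunit in blue and small subunit in orange, each sorted by the linalool comparison. Filled symbols passed limma's test at an adjusted p of 0.05 (0 on the left; 32 higher and 2 lower on the right as deposited, 23 and 4 with quantile normalization, 44 and 2 with median centring), and squares were compressed in that set, where directions can turn with the scaling.

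Averaged over the 50 members, each in residual SDs from its set mean, the 6 control rats scored from -0.57 to 1.56 (median 0.52) and the stress rats from -1.21 to 0.77 (median -0.49). The groups overlapped. Stress rat 2 stood above the other stress rats, which lay between -1.21 and -0.41, and was the highest stress rat for 38 of the 50 members. Stress rat 6 was the lowest for 26. Among controls, rat 6 was the highest for 34 members and rat 3 the lowest for 32. Without stress rat 2 the number of members with an unadjusted p under 0.05 was 27 in place of 11, and the medians were -1.39 (large) and -1.42 (small). Without control rat 3 it was 20. Without control rat 4 or 5, or stress rat 1 or 6, it was 7 each. The share of all probe sets was not taken in these fits, so these counts do not set the members apart from the array.

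Meningeal markers were high in some of the controls. None of the 14 meningeal fibroblast genes passed the test in this comparison (0.554% of all probe sets did). Their summed linear signal ranged from 5707 to 23654 in control and from 6201 to 7829 in stress rats, and controls 4, 5 and 6 scored 0.79, 2.28 and 2.13 residual SDs, with all stress rats between -0.87 and -0.44. Without these 3 controls 43 of 50 members had a lower mean in stress rats. The share of all probe sets was not taken for this fit, so the count describes the members alone. The medians were then -0.58 (large) and -0.54 (small), and only 1 member had an unadjusted p under 0.05. Of 8 endothelial markers 1 was lower in stress rats, and their median difference was -1.10 residual SDs. They scored from -0.74 to 1.54 in control and from -1.60 to -0.17 in stress rats, so that every stress rat stood below the set mean, and their summed linear signal was 6932 to 8604 and 6410 to 7677. The meningeal median was -1.43, no other marker list had a call, and the other medians lay between -0.30 and 0.41. The part of these tissues in the members' differences was not otherwise tested.

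**Figure D3:**
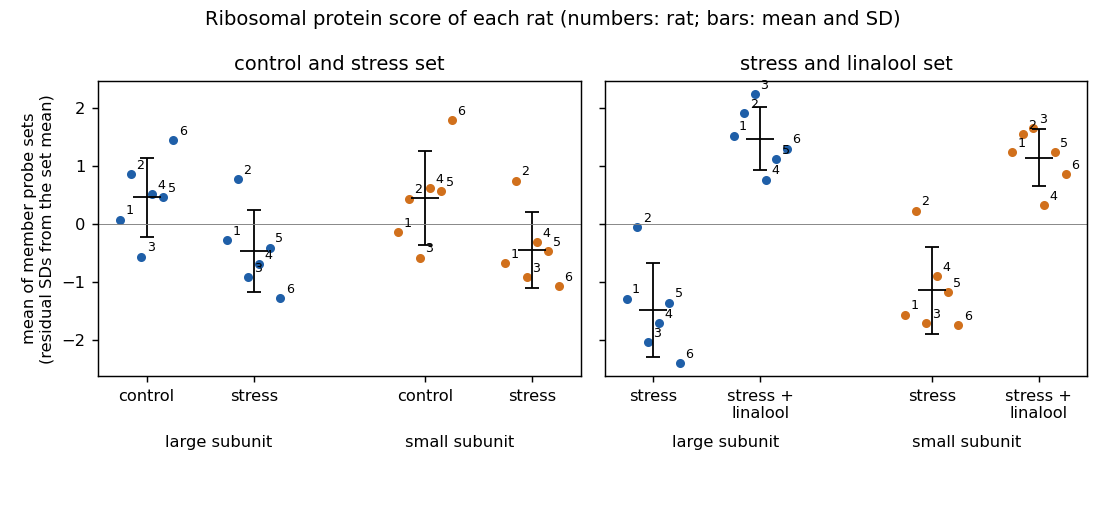
Mean of the large subunit (blue, 33 probe sets) and small subunit (orange, 17 probe sets) members in each rat, in residual SDs from the set mean; numbers are rats, bars the group mean and SD. Left: control and stress rats overlap (large subunit -0.56 to 1.45 against -1.28 to 0.77). Right: every linalool rat lies above every stress rat (large subunit 0.77 to 2.24 against -2.40 to -0.06; small subunit 0.33 to 1.65 against -1.75 to 0.23).

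The comparison of linalool with stress alone asked whether the odor altered expression under restraint. Here 32 of the 50 members rose, 2 fell and 16 did not pass. Over all probe sets 25% passed, 14.2% higher and 10.8% lower, and among probe sets at or above the median level 21.3% were higher and 12.9% lower. In 24 members every linalool rat lay above every stress rat (7.56% of all probe sets) and in 1 every linalool rat lay below (4.36%). The median difference was 2.59 residual SDs, against -0.01 over all probe sets. On the log2 scale the members that rose and were not compressed gained between 0.12 and 0.75, that is 1.09-fold to 1.68-fold.

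The number of members that rose depended on the scaling. With quantile normalization 23 rose and 4 fell, where 4.94% of all probe sets were higher and 3.48% lower. With median centring 44 rose and 2 fell, where 88.6% of all probe sets were higher and 4.72% lower, so that the members' count was no larger a share than the background. Median centring thus moved the whole array: 94.9% of all calls were then higher, against 56.7% as deposited. Among the 37 uncompressed members 26 rose and 2 fell as deposited, where 28.4% of all uncompressed probe sets were higher and 21.3% lower. With quantile normalization 23 of them rose and 2 fell (25.2% and 17.2% of all uncompressed probe sets), and with median centring 31 rose and 2 fell (34.2% and 28.8%). Of the 13 compressed members 6 rose as deposited (11.4% of all compressed probe sets), 0 with quantile normalization (0.985%), where 2 fell (0.8%), and 13 with median centring (99.2%). The 19 bacterial control probe sets past the threshold and the shift of the 3′ to 5′ ratios given above separate the same groups, and their part in the members' differences was not tested.

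The subunits were set side by side. Of 33 large subunit probe sets 24 rose and 1 fell, with a median of 2.82 residual SDs, and of 17 small subunit probe sets 8 rose and 1 fell, with a median of 1.63. At or above the median level 23 of 29 and 6 of 14 rose (21.3% of all such probe sets). With quantile normalization 17 large and 6 small subunit probe sets rose (4.94% of all probe sets), and with median centring 30 and 14 (88.6%, with both subunits' shares near that background). With 1 probe set per gene, 22 of 30 large and 7 of 14 small subunit genes rose, against 20% of all genes. Members are not replicates, so the counts and medians describe the subunits and their difference was not tested.

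Rps3, in the head of the small subunit, changed most in relation to its spread. Its log2 signal was 11.25, 11.28 and 11.42 (lowest, median, highest) in stress rats and 11.77, 11.90 and 11.95 in linalool rats. The groups were far apart, and the highest stress value belonged to rat 2. The log2 difference was 0.59 ± 0.04 (SE; limma, adjusted p = 2.02e-05). In the other set the same stress rats had stood inside the control range.

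Rps3a, which lies on the small subunit near the mRNA exit, was next among its subunit's members. Stress rats measured 12.25, 12.39 and 12.51 and linalool rats 12.74, 12.80 and 12.85 (lowest, median, highest; log2 signal). Every linalool rat lay above the highest stress rat. The gain was 0.42 ± 0.04 log2 units (SE), 1.33-fold (limma, adjusted p = 1.19e-04). Rps6, whose phosphorylation by S6 kinase is widely used as a marker of neuronal activity, measured 12.54, 12.61 and 12.81 in stress and 12.90, 12.93 and 12.99 in linalool rats. Its groups did not overlap either, and the gain was 0.31 ± 0.04 (SE; adjusted p = 6.88e-04, limma).

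Rps29, a zinc-binding protein of the small subunit head, rose by 0.23 ± 0.02 log2 units (SE; adjusted p = 2.46e-04, limma). Rps15, which has a tail near the decoding centre, rose by 0.27 ± 0.05 (adjusted p = 0.00314), with the highest stress rat at 12.29 above the lowest linalool rat at 12.24. Rps23, which reaches into the decoding centre, rose by 0.17 ± 0.05 (adjusted p = 0.0308). For Rps24 the dim, compressed probe set passed (2.41 residual SDs, adjusted p = 0.0119) and the bright one did not (1.63, adjusted p = 0.0591). With quantile normalization no compressed member rose.

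Rpl26 and Rpl34 led the large subunit. Rpl26, at the rim of the exit tunnel, measured 12.51, 12.60 and 12.66 in stress rats and 12.93, 13.01 and 13.02 in linalool rats (lowest, median, highest; log2 signal). Rpl34 measured 12.59, 12.62 and 12.68 in stress and 12.86, 12.89 and 12.97 in linalool rats. In both, the groups were separated by more than the range of either. The log2 differences were 0.39 ± 0.03 and 0.27 ± 0.02 (SE), each with an adjusted p of 4.49e-05 (limma).

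Rpl7, an RNA-binding protein of the large subunit, rose at both of its probe sets. At the dimmer one stress rats measured 7.81, 7.94 and 8.12 and linalool rats 8.49, 8.71 and 8.84, a gain of 0.75 ± 0.07 (SE; adjusted p = 1.11e-04, limma). At the brighter one they measured 12.04, 12.15 and 12.26 against 12.41, 12.51 and 12.56, a gain of 0.35 ± 0.04 (adjusted p = 2.92e-04). The groups did not overlap at either.

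**Figure D4:**
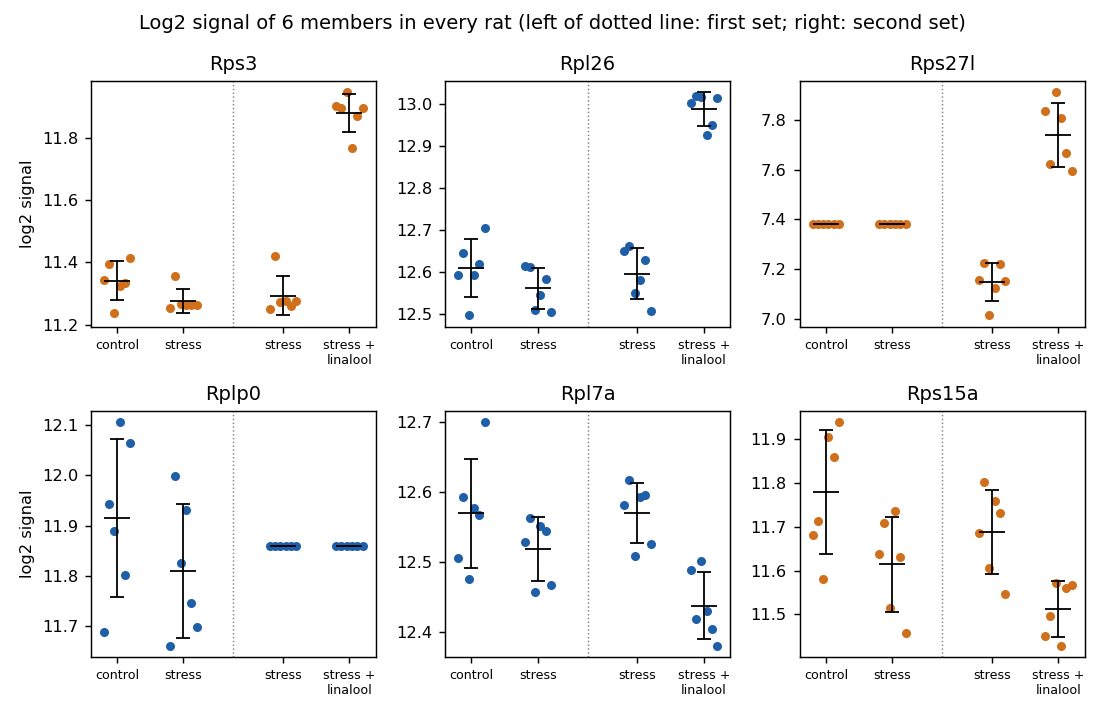
Log2 signal of 6 members in every rat, with group mean and SD; left of the dotted line control and stress rats as normalized together, right of it the same stress rats with the linalool rats. Rps3, Rpl26 and Rps27l separate on the right, Rpl7a and Rps15a are lower in linalool rats, and the flat groups of Rps27l (left) and Rplp0 (right) show compressed values; levels left and right come from separate normalizations.

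All 3 members of the 5S particle and Mdm2-binding group passed and were higher (14.2% of all probe sets were, and 20% of all genes with 1 probe set per gene). Rpl11 measured 12.17, 12.19 and 12.29 in stress rats and 12.38, 12.45 and 12.53 in linalool rats, without overlap, a gain of 0.25 ± 0.03 log2 units (SE; adjusted p = 2.74e-04, limma). Rpl5 measured 12.32, 12.40 and 12.46 against 12.55, 12.59 and 12.67, again without overlap, a gain of 0.20 ± 0.03 (adjusted p = 0.00119). Rpl23, compressed in both sets, stood 2.00 residual SDs higher (adjusted p = 0.0331), and its direction turned with quantile normalization (-1.24). It passed in 5 of the 12 fits that leave out 1 rat, and without linalool rat 4 it stood at 3.12.

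Around the exit tunnel 5 of the 7 measured members rose (14.2% of all probe sets did). Besides Rpl26 these were Rpl4, whose loop narrows the tunnel (0.31 ± 0.03, adjusted p = 2.12e-04), Rpl19 (0.25 ± 0.04, adjusted p = 8.95e-04), Rpl23a, a docking point of the signal recognition particle (0.26 ± 0.04, adjusted p = 0.00132), and the compressed Rpl39 (4.95 residual SDs, adjusted p = 3.54e-04). The Rpl39 call was lost with quantile normalization (0.10). Rpl22 (0.04 ± 0.01, adjusted p = 0.0609) and Rpl35 (-0.09 ± 0.04, adjusted p = 0.119) did not pass. Rpl35 sits beside Rpl23a at the tunnel exit, and its mean was on the other side (limma; log2 differences with SE).

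Rpl3, near the peptidyl transferase centre, rose by 0.17 ± 0.04 log2 units (SE; adjusted p = 0.0127, limma), a call lost with quantile normalization. Its second probe set, compressed, also passed (2.82 residual SDs, adjusted p = 0.00631). In the P stalk Rpl12 rose and Rplp0 did not pass. Rpl12, at the stalk base, measured 12.03, 12.05 and 12.25 in stress and 12.21, 12.25 and 12.28 in linalool rats (adjusted p = 0.00917). Only stress rat 2 reached the linalool range, and the call was lost with an exact rank-sum test. Rplp0, the stalk's scaffold and a common reference gene in quantitative PCR, differed by 0.22 residual SDs (adjusted p = 0.817). It was compressed in this set alone, and with quantile normalization it stood at -2.98.

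Other large subunit members that rose without overlap were Rpl18 (0.23 ± 0.03, adjusted p = 2.62e-04), Rpl27 (0.30 ± 0.03, adjusted p = 2.89e-04), Rpl13a (0.26 ± 0.04, adjusted p = 8.23e-04), Rpl6 (0.15 ± 0.02, adjusted p = 0.00151) and Rpl37a (0.13 ± 0.03, adjusted p = 0.00568). Rpl13a also serves as a reference gene in many studies and outside the ribosome silences inflammatory mRNAs. Rpl35a, Rpl14, Rpl27a and the compressed Rpl21 rose with overlapping groups, and the dim, compressed Rpl30 rose without overlap (limma; log2 differences with SE).

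Of the 2 paralogs measured, 1 rose (14.2% of all probe sets did, and 20% of all genes with 1 probe set per gene). Rps27l, a relative of Rps27 that is induced by p53, measured 7.01, 7.15 and 7.22 in stress rats and 7.59, 7.74 and 7.91 in linalool rats (lowest, median, highest; log2 signal). The groups did not overlap although the probe set is dim. The gain was 0.59 ± 0.06 log2 units (SE), 1.51-fold (limma, adjusted p = 1.91e-04). Rpl3l, the muscle relative of Rpl3, did not pass (-0.68 residual SDs, adjusted p = 0.415), and its mean turned higher with median centring (1.47).

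Rpl7a and Rps15a fell. Rpl7a, a large subunit protein, measured 12.51, 12.59 and 12.62 in stress rats and 12.38, 12.42 and 12.50 in linalool rats. Every linalool rat lay below every stress rat, by a narrow margin, and the drop was by 0.13 ± 0.03 log2 units (SE; adjusted p = 0.00458, limma). Rps15a, in the small subunit body, measured 11.55, 11.71 and 11.80 against 11.43, 11.53 and 11.57. Its groups overlapped at 1 edge, and the log2 difference was -0.18 ± 0.05 (adjusted p = 0.0189, limma). The call for Rps15a was lost with an exact rank-sum test and with the rat number as a block (adjusted p = 0.0887, limma), where Rpl7a kept its call (adjusted p = 0.0335).

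The 16 members that did not pass include several not yet described. The 3 probe sets of Rpsa differed by 0.14 ± 0.06, 0.11 ± 0.04 and 0.15 ± 0.06 log2 units (SE; adjusted p = 0.0833, 0.0710 and 0.0813, limma), all higher on average. Rpl24, nearest to the threshold in the stress comparison, differed by 0.02 ± 0.05 (adjusted p = 0.733). Rps28 (0.00 ± 0.04, adjusted p = 0.943) and Rps16 (-0.05 ± 0.06, adjusted p = 0.559), both in the small subunit head, and the compressed Rpl41 and Rps9 did not pass either. The dim and compressed Rpl28, Rps13 and the dim Rpl14 probe set complete the list.

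**Figure D5:**
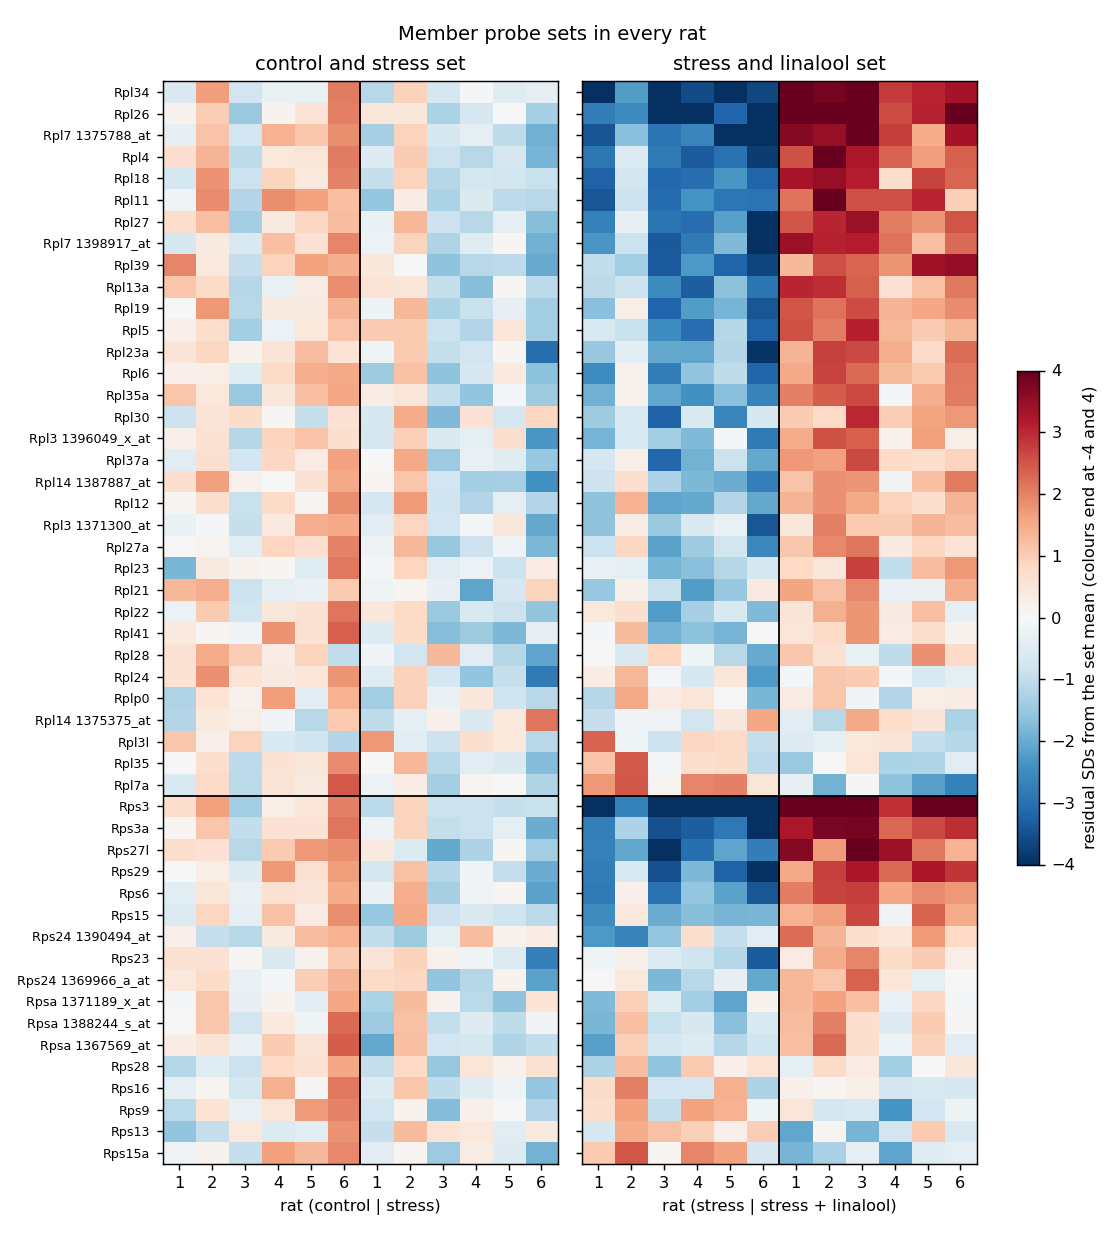
Every member probe set (rows; large subunit above the line, small below, sorted by the linalool comparison) in every rat (columns), in residual SDs from the set mean; blue is below and red above it, as deposited. On the left control rat 6 (highest control for 34 of 50 members) and stress rat 2 (highest stress rat for 38) stand out; on the right most members are blue in stress and red in linalool rats, while Rpl7a and Rps15a are reversed.

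Averaged over the members, the linalool rats scored 0.62 to 2.04 residual SDs and the stress rats -2.18 to 0.04, without overlap. Stress rat 2 was again the highest of its group, for 40 of 50 members, and the other 5 stress rats lay at or below -1.30. Without it 38 members rose (13.9% of all probe sets), 26 in the large and 12 in the small subunit, and the medians were 3.98 and 2.25. In residual SDs Rpl12 then stood at 7.36 in place of 2.53, Rps6 at 7.54 in place of 4.23, Rpl19 at 6.97 in place of 4.03, Rpl27 at 8.24 in place of 5.10 and Rpl4 at 8.48 in place of 5.46. Among linalool rats, rat 3 was the highest for 25 members and rat 4 the lowest for 23. Leaving out any single rat left 29 to 38 members higher and 2 or 3 lower. A share over all probe sets is given here only for the fit without stress rat 2, so the range of counts describes the members alone.

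Within groups the members varied together. The mean correlation between 2 members over rats, after group means were removed, was 0.474 among control and stress rats and 0.412 among stress and linalool rats, and 0.473 and 0.384 between a large and a small subunit member. Over all probe sets it was 0.004 and 0.002, and over 73 mitochondrial ribosomal protein genes 0.278 and 0.301. These are descriptions over 12 arrays that share their RNA preparation, and the 6 stress rats are in both sets.

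Marker genes of other tissues were also compared between stress and linalool rats. Of 14 meningeal markers 1 was higher, of 3 measured blood markers 2 were higher, of 6 thalamic markers 2 were lower and of 6 neuronal markers 2 were lower. Of 12 hypothalamic markers 2 were higher, of 6 microglial 2 and of 8 endothelial 1, while 1 each was lower among 6 pituitary, 5 oligodendrocyte and 6 astrocyte markers, and none of 7 choroid plexus markers passed. Over all probe sets 14.2% were higher and 10.8% lower. The list medians ran from -1.47 (thalamus) to 2.24 residual SDs (blood). Neuronal markers scored 0.13 to 1.15 residual SDs in stress and -1.02 to -0.14 in linalool rats, without overlap. The scores of every other marker list overlapped. The summed linear signal of the blood markers was 3173 to 3960 in stress and 3737 to 5202 in linalool rats, and that of the thalamic markers 9335 to 16815 and 8865 to 12275. The part of these tissues in the members' differences was not tested.

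Another 33 probe sets list a ribosomal protein gene together with copies or other genes and are not members. In the stress comparison none of them passed (0.554% of all probe sets did) and their median was -0.99 residual SDs. In the linalool comparison 22 rose and 1 fell, with a median of 2.94, where 14.2% of all probe sets were higher and 10.8% lower.

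Other genes of protein synthesis were taken from lists. In the stress comparison none passed in any of them (0.554% of all probe sets did). In the linalool comparison 9 of 15 elongation factors and other genes with TOP mRNAs rose and none fell, led by Eef1d (0.41 ± 0.03 log2 units), Eef1b2 (0.39 ± 0.04) and Naca (0.18 ± 0.02). Eef1d and Eef1b2 encode subunits of the factor that reloads elongation factor 1A, and Naca binds new chains at the tunnel exit. Of 3 further cytosolic ribosome genes Rack1, a scaffold on the small subunit head, rose by 0.22 ± 0.05, and the compressed Rpl7l1 also passed (SE throughout; limma, adjusted p from 4.09e-05 for Eef1d to 0.0220 for Rpl7l1).

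Among the genes that make ribosomes 9 of 39 rose and none fell, among them Nop10 (0.38 ± 0.02), part of a particle that guides pseudouridine formation in rRNA, Pes1 (0.19 ± 0.02) and Nolc1 (0.21 ± 0.02). Of 73 mitochondrial ribosomal protein genes 45 rose and 3 fell, with a median of 1.97 residual SDs, led by Mrpl27 (0.40 ± 0.04), Mrps18c (0.32 ± 0.04) and Mrpl12 (0.22 ± 0.03). In the mTOR and S6 kinase list 3 of 14 rose and 2 fell: Tsc2, an inhibitor of the pathway, rose by 0.32 ± 0.04, Eif4ebp2, a repressor of cap-dependent translation, had a log2 difference of -0.19 ± 0.04, and the compressed Rps6ka2 and Larp1, which binds TOP mRNAs, passed in opposite directions (SE throughout; limma, adjusted p from 1.89e-05 for Nop10 to 0.00692 for Larp1). These counts stand beside 14.2% higher and 10.8% lower over all probe sets. The lists take 1 probe set per gene, and at that level 20% of all genes were higher. The shares that rose in the ribosome-making list (23.1%) and in the mTOR and S6 kinase list (21.4%) lay near that.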

How the data were processed

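The authors deposited 1 log2 signal for each probe set and array. They normalized 2 sets of 12 arrays, per the labels' design text: controls with stress rats, and the stress rats again with linalool rats. How they summarized and normalized is not given in the sources used, and the log2 scale was read from the range of the values (5.59 to 14.93). Of 31099 probe sets 57 array controls were left out. Symbols came from the platform annotation; 48 of 50 members matched a RefSeq gene (GRCr8) by identifier, all with the same symbol.

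Each set was fitted on its own (R 4.3.3; lmFit and eBayes of limma 3.58.1; no covariate, two-sided), with Benjamini-Hochberg adjustment over 31042 probe sets and a threshold of 0.05. A difference in residual SDs is the log2 difference over the fit's residual SD, which a factor per probe set does not change. The labels describe separate rats; no batch was found in the labels. The number of arrays limits the precision. The procedure was tested on simulated data.

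The members, the gene lists, the naming rule and the residual SD of 0.01 were chosen with earlier results of these data known. Named were the 5 members per subunit nearest to the threshold (stress), the 6 per subunit that rose with the smallest p and every member that fell (linalool), members of the P stalk, 5S particle, peptidyl transferase, tunnel and paralog lists, Rps3, Rps6 and Rpsa, and up to 3 genes of each other list; the remaining members are named to account for every one. Alternatives were quantile normalization, median centring, the replicate number as a block, 1 value per gene, dim probe sets left out, no moderation, an exact rank-sum test, controls 4 to 6 left out, and each rat left out in turn.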

Additional observations from a re-analysis of the deposited data

Results flagged for a closer look

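Of 110 groups of 6 rats tested for a single distant value, 7 had one, and each time it was stress rat 2. Chance alone gives about 5% of groups. In residual SDs from the set mean its values were 0.892 for Rps3 and 1.70 for Rpl12 in the first set, and -2.69 for Rps3, 1.38 for Rpl12, -0.745 for Rpl18, 0.430 for Rps15 and -0.561 for Rpl4 in the second. In each case it was the highest stress rat. The same 6 arrays underlie both sets, so the values of Rps3 and Rpl12 in the 2 sets are not separate observations.

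In data outside the main measurement, 19 of the 45 bacterial control probe sets passed the threshold between linalool and stress rats (15 higher, 4 lower), against 1 between stress and control rats. Among the 19 were compressed probe sets, such as LysX-3 (higher by 4.55e-04 log2 units), and uncompressed ones, such as r2-Bs-phe-3 (higher by 0.34). The array's rat 5S rRNA control differed by -0.39 log2 units between linalool and stress rats (limma, adjusted p = 7.86e-04 over the array controls).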

How the results depend on the processing

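No member passed limma's test in the stress comparison under any alternative (11 had an unadjusted p under 0.05 as deposited). The exact rank-sum test called 0 of all probe sets there (11 members at an unadjusted p under 0.05), so its 0 says nothing of the members. The small subunit median moved to -0.26 residual SDs with quantile normalization; leaving out single rats gave -1.39 to -0.72 (large) and -1.42 to -0.84 (small). Among named members, directions turned with quantile normalization for Rpl39 (0.894), Rps27l (0.677) and Rps29 (1.09), with median centring for Rpl39 (1.10), Rpl41 (1.10), Rps27l (1.10), Rps29 (1.11), Rpl5 (1.12) and Rpl23 (1.12), and without controls 4 to 6 for Rpl3 (0.0925), Rpl3l (-0.699), Rpl5 (0.00602) and Rpl23 (0.450). Leaving out single rats moved Rpl3l from -0.236 to 0.386 and Rpl23 from -0.641 to 0.377. In the linalool comparison the number that fell was 4 with quantile normalization (3.48% of all probe sets). It was 1 (Rpl7a) with the replicate block and with the exact rank-sum test, where 2254 and 2585 of all probe sets were lower. The large subunit median was 2.12 with quantile normalization and 3.52 without dim probe sets, and 2.62 to 3.98 without single rats (small subunit 1.47 to 2.25). Directions turned with quantile normalization for Rplp0 (-2.98) and Rpl23 (-1.24) and with median centring for Rpl3l (1.47); without single rats Rplp0 ran from -0.147 to 0.62. The cause was not tested. Rats share numbers across groups, but only 3 of 6 same-numbered pairs in each set had deviations correlated above 0.1 (from -0.112 to 0.158, and from -0.105 to 0.353, with numbers 1 and 2 at 0.344 and 0.353), and 1 of 6 numbers per set was its own best match, so the numbers were not taken as pairs; with it 29 members rose and 1 fell, and no member passed in the stress comparison. Compressed members limit what the deposited scale can show.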
